A study of Mus musculus with 696 samples.

Results

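Skint-high keratinocytes are cells of mouse tail skin with high levels of Skint10, Skint9 and Skint6 together with Dsc1, Olah and Hal. Each gene was standardised (z) over all cells on log2(CPM + 1), where CPM is the usual count scaled to the total of its cell. The mean z of these 6 genes was the score, and the 50 cells with the highest score were taken as members, which leaves 646 other cells (7.18% of all cells are members). The score of the members ran from 1.37 to 3.18, and the first cell outside scored 1.36, so the boundary lies in a continuous range and not in a gap. Because the 6 genes chose the members, their own levels and every contrast of members with the other cells are given as a description, without a test.

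The cells were tdTomato+ keratinocytes sorted as single cells from female mice that carried the Lrig1-EGFP-ires-CreERT2 and Rosa26-fl/STOP/fl-tdTomato alleles, on a CBA C57BL/6 mixed background. All groups, unwounded skin included, had 1 topical dose of hydroxytamoxifen on the tail as adults before any wound. Cre activity was under the Lrig1 gene, which is active in stem cells of the upper hair follicle, so the sort aimed at cells descending from these. Skin was taken at 4 time points. Unwounded tail is called 0w. A full-thickness wound was followed for 1 week (1w pw1) or until healed at 8 weeks (8w pw1), and a second wound laid over the first was followed for 1 week (1w pw2). From the wounded mice the sorted zone took in the wound bed and distal hair follicles, so the cells cannot be assigned to either. Each time point had 2 plates of single cells, which are the label replicates, and the study describes 2 independent experiments, each with 4 biological replicates. How mice map to plates is not given in the labels, so p-values measure the spread between plates only, which may be technical. In the labels every time point also carries a replicate letter of its own, so that letter and the time point cannot be told apart.

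Skint genes encode membrane proteins of the immunoglobulin superfamily, related to butyrophilins, that are made in skin and thymus epithelium. The founding member, Skint1, is needed for the dendritic epidermal T cells of the mouse to develop in the thymus, while the roles of most other Skint genes are less well known. As keratinocytes leave the basal layer they switch off Krt5, Krt14 and integrins, turn on Krt1 and Krt10, exchange their desmosomal cadherins (Dsc1 is a desmocollin of the upper layers) and later make cornified envelope proteins and barrier lipids. Olah encodes a thioesterase that frees fatty acids from fatty acid synthase, and Hal encodes histidine ammonia-lyase, which makes urocanic acid in the epidermis.

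Skint10, Skint9 and Skint6 lie on chromosome 4 in the GRCm38 build, all on the minus strand and all annotated as protein coding. The gene of Skint9 spans chr4:112385969-112433985, that of Skint10 chr4:112711147-112774866 and that of Skint6 chr4:112804616-113286973. The region from 250 bases before to 50 after the start of each is printed to show how far the starts of the genes that define these cells resemble each other, with Skint5 as the family member closest to Skint6 and Hal as the rule gene that held 3 of the 4 motifs searched. The sequences are from RefSeq (GRCm38.p6), 5′ to 3′ on the strand of the gene. Capitals mark TATAAA, the AP-1 letters TGANTCA or the C/EBP letters TTGCNNAA, each read on both strands, so that TTTATA is TATAAA on the other strand. The positions are chr4:112774812-112775111 (Skint10), chr4:112433936-112434235 (Skint9), chr4:113286924-113287223 (Skint6), chr4:113999454-113999753 (Skint5) and chr10:93488518-93488817 (Hal, plus strand).
Skint10: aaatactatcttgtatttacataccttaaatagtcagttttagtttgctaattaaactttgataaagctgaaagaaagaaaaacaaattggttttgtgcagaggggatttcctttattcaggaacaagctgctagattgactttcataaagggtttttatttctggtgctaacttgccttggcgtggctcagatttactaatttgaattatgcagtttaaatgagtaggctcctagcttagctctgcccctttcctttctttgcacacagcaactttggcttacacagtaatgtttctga
Skint9: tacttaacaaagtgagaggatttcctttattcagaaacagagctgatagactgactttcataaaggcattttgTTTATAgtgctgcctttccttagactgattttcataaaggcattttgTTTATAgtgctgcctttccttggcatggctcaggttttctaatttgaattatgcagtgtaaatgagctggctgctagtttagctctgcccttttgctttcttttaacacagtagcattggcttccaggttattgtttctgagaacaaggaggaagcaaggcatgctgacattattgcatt
Skint6: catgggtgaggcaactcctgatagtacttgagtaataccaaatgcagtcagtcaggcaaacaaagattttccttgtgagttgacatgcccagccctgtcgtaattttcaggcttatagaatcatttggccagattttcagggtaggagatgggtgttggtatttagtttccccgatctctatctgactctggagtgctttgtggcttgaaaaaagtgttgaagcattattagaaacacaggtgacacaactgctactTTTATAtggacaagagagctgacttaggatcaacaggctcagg
Skint5: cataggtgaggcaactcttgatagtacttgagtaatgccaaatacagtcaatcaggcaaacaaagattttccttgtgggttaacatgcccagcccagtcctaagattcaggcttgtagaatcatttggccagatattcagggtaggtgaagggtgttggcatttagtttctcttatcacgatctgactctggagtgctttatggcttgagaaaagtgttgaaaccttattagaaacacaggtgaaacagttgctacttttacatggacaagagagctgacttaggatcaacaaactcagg
Hal: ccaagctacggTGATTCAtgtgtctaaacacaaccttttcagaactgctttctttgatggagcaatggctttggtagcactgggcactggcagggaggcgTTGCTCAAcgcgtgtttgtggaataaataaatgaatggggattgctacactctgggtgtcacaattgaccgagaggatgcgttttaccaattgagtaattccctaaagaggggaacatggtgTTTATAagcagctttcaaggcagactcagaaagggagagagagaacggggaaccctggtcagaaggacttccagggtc

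The starts of Skint6 and Skint5 were 89.7% identical, while those of Skint9 and Skint10 were 58.5% identical. Skint9 held TATAAA at 2 places and Skint6 at 1 place, and neither Skint10 nor Skint5 held any of the 4 motifs in this window. Hal held AP-1, TATAAA and C/EBP letters, and Olah held AP-1 letters. The grainyhead letters AACCGGTT were in none of the 11 Skint, Olah or Hal windows. Of 32851 promoters of the same length, 13.6% held TATAAA, 7.81% the AP-1 letters, 10.8% the C/EBP letters and 0.146% the grainyhead letters. These matches describe letters only. The reads were 75 bases long and came from one end. Of all stretches of that length in the annotated transcripts, Skint10 and Skint9 shared 0% with another Skint gene and Skint6 shared 1.28% with Skint5. Nearly all such stretches of these genes thus differed from those of the other Skint genes. Only exact matches among the Skint genes were sought, and other genes were not compared.

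The depth of the members differed between plates. Over all plates they held a median of 187551 counts (13283 to 970862) and 4844 genes, against 130217 counts and 4413 genes in the other cells. Their median was below that of the other cells on 0w replicate 2 (61276 against 129423 counts) and 1w pw2 replicate 1 (109662 against 131786), and above it on the other 5 plates with members. The median mitochondrial share was 18.1% in members and 20.6% in the others. Total counts per plate ranged from 12293182 to 19760820. The most alike of all pairs of cells were 2 members in neighbouring wells (E10 and F10) of 1w pw2 replicate 2, with a Pearson correlation across genes of 0.80, against a median of 0.53 over the 1225 member pairs. The share tests and the comparison of 1w pw2 with 1w pw1 were repeated without the shallower of the pair, while the other values were not.

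Skint10 was detected in 45 of the 50 members, Skint9 in 45, Skint6 in 28, Dsc1 in 50, Olah in 47 and Hal in 34. No gene besides Dsc1 was therefore present in every member, and 27 members held counts of 5 of the 6 genes, 12 of 4 and 11 of all 6. Among the other cells, detection was 12.2% for Skint10, 15.3% for Skint9, 3.87% for Skint6, 42.1% for Dsc1, 14.1% for Olah and 7.74% for Hal. With each cell thinned to 20000 counts, Skint10 was seen in 83.3% of the members and 11.1% of the others. Skint6 was seen in 47.9% and 2.18% at that depth.

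Mean Skint10 per member was 1320 CPM on 0w replicate 2, 1072 and 1427 CPM on the 1w pw1 plates, 1146 and 1198 CPM on the 1w pw2 plates and 3299.6 and 827 CPM on the 8w pw1 plates. The 8w pw1 plates rest on 2 cells and 1 cell. Mean Skint9 was 1572 CPM on 0w replicate 2, 722 and 1049.8 CPM for 1w pw1, 286 and 612 CPM for 1w pw2 and 1934 and 143 CPM for 8w pw1. The 4 plates at 1 week after a wound were alike in Skint10, and in Skint9 the 1w pw2 plates lay below the 1w pw1 plates. The members were chosen by these genes, so their levels are shaped by the rule. A difference between time points was not tested. Mean Skint6 was 97.9 CPM on 0w replicate 2, 197 and 185 CPM for 1w pw1, 216 and 130.3 CPM for 1w pw2 and 160.03 and 525 CPM for 8w pw1. Dsc1 means lay between 528 and 2386 CPM over these 7 plates, and Olah was listed at 0 in the single member of 8w pw1 replicate 2 against 61.4 to 193 CPM elsewhere. Hal was at 15.9 to 27.5 CPM on 0w replicate 2 and 8w pw1 replicate 2 and at 72.4 to 265 CPM on the remaining 5 plates. Cell to cell the range was wide, from 0 to 7584 CPM for Skint10, from 0 to 1381 CPM for Skint6 and from 65.1 to 2456 CPM for Dsc1.

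Skint-high cells were found mainly during healing. Of the 50 members, 44 came from the 345 cells at 1w pw1 and 1w pw2 and 6 from the 351 cells at 0w and 8w pw1. The 1w pw1 plates held 10 of 89 and 14 of 79 cells (11.2% and 17.7%), and the 1w pw2 plates 9 of 86 and 11 of 91 (10.5% and 12.1%). The 0w plates held 0 of 88 and 3 of 91 (0% and 3.30%), and the 8w pw1 plates 2 of 85 and 1 of 87 (2.35% and 1.15%). Every plate at 1 week after a wound lay above every plate of unwounded or healed skin. The 0 of 88 cells on 0w replicate 1 allows a share of up to 4.11%, the upper end of its exact 95% binomial interval. The same kind of interval for the highest share ran from 10.04% to 27.9%. Both cover counting error only.

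**Figure D1:**
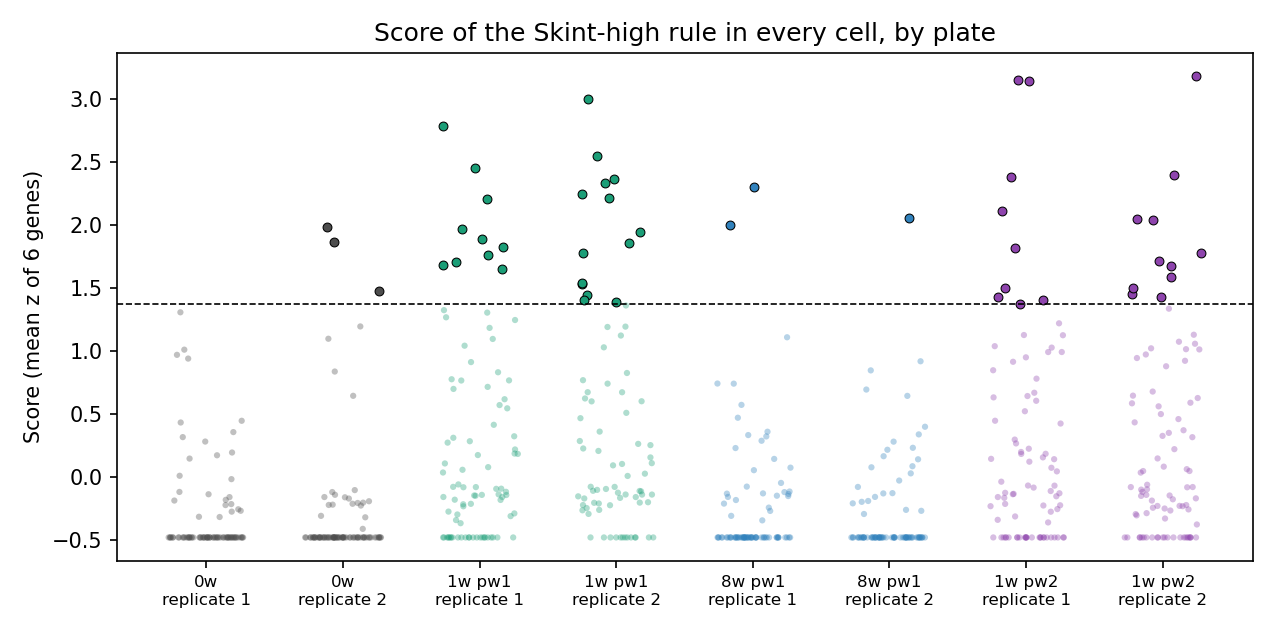
Score of the Skint-high rule (vertical axis, mean z of 6 genes) for every cell of the 8 plates (horizontal axis, points spread sideways at random). Points with a black edge above the dashed line at 1.37 are the 50 members; most cells of unwounded and healed skin sit together at the lowest score, -0.48, and the members of the 4 healing plates number 10, 14, 9 and 11.

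The mean share was 14.5% ± 4.59 (SD, n = 2 plates) for 1w pw1 and 11.3% ± 1.15 for 1w pw2. It was 1.65% ± 2.33 for 0w and 1.75% ± 0.851 for 8w pw1. The healing plates exceeded the others by 11.2 percentage points, with an exact two-sided permutation p of 0.0286, the smallest that 4 plates against 4 can give (70 assignments). Adjusted over the 2 share tests (Benjamini-Hochberg), this was 0.0571, which does not pass 0.05. Leaving out the shallower of the 2 alike cells was an alternative that had not been planned. It gave a difference of 10.9 points and again an exact permutation p of 0.0286, with an adjusted p of 0.0476. Across the 4 time points the highest and lowest mean shares differed by 12.8 points (exact permutation p = 0.0667 over 2520 assignments, adjusted 0.0667). The smallest p that this second test allows is 0.00952. The means at 1w pw1 and 1w pw2 differed by less than the spread of the 1w pw1 plates.

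The number of cells with suprabasal keratins moved with the same time points. Cells with counts of both Krt1 and Krt10 numbered 54 and 52 on the 1w pw1 plates and 46 and 58 on the 1w pw2 plates, against 14 and 11 in unwounded and 20 and 21 in healed skin. Of these cells, the Skint-high share was 14.8% and 26.9% for 1w pw1 and 17.4% and 19.0% for 1w pw2. It was 0% and 18.2% in unwounded skin, and in healed skin 2 of 20 and 0 of 21 cells. On this denominator, which was chosen after seeing the data, the plates of healing and non-healing skin overlapped. The difference was 12.5 points (exact permutation p = 0.0857, adjusted 0.171), and across time points p was 0.352. Sorting caught cells, so a change in the number of other cells cannot be told apart from a change in the number of Skint-high cells.

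**Figure D2:**
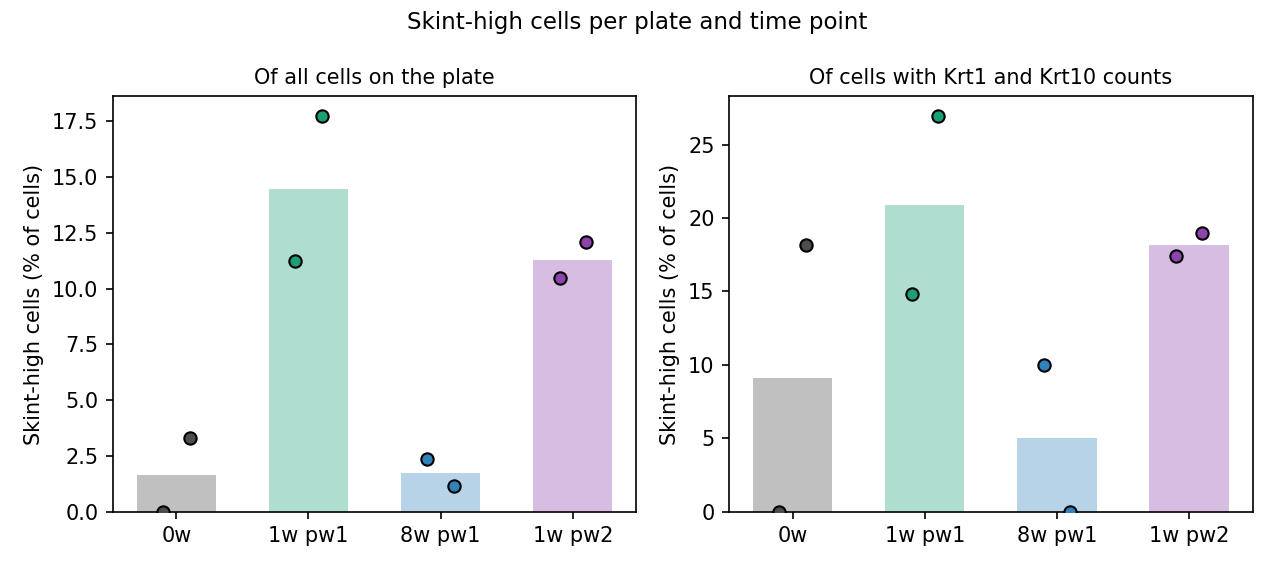
Share of Skint-high cells in percent (vertical axes) at the 4 time points, for each plate (points) and as the mean of 2 plates (bars), of all cells on the left and of cells with Krt1 and Krt10 counts on the right. On the left the healing plates sit at 10.5% to 17.7% and the others at 0% to 3.30%; on the right 0w replicate 2, at 18.2%, lies within the range of the healing plates.

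The label of differentiating keratinocytes was checked against markers. Krt10 was detected in all 50 members and Krt1 in 45, and Krtdap, Sbsn, Dmkn, Calm4, Lypd3 and Ly6d, all genes of the spinous layer and beyond, were detected in all 50. These genes were also common in the other cells, with Krt10 in 71.8%, Krt1 in 37.9%, Calm4 in 63.8% and Dmkn in 86.1% of them. The basal keratin Krt5 was detected in 7 of 50 members and in 62.4% of the other cells, and Krt15 in 5 members. Krt14, another basal keratin, was detected in 30 members and in 91.3% of the other cells, and the basal integrin Itga6 in 20 members and 68.4%. Of the 14 genes of the spinous list, 12 were detected in 45 or more members, while Krt2 was detected in 22 and Krt77 in 1, and 2 of the 14 were at least 2-fold higher on all 5 plates with 3 or more members. Krt79, a keratin of the upper follicle duct and infundibulum, was detected in 27 of the 50 members and in 51.9% of the other cells.

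Members could be described by Krt79, a division chosen after its values were seen. In the 27 members with Krt79 counts the median was 9005 CPM of Krt79, 5273 CPM of the defensin Defb6, 4361 CPM of the cystatin Cst6, 3578 CPM of Krt17 and 681 CPM of the protease Klk7. In the 23 without Krt79 counts, Defb6 was 5.80 CPM and Cst6 112 CPM, while Krt17 and Klk7 had medians of 0. These genes, all but the last counted here among the genes of the upper follicle duct, were high in the same cells. Gata6, a transcription factor of that duct, was detected in 20 of 27 members with Krt79 and in 2 of 23 without. Klk10, also counted among the duct genes, was detected in 4 of the 50 members, at 4.91 against 208 CPM in the other cells. Atp6v1c2, likewise of that list, was detected in 41 members, at 84.1 against 61.1 CPM. Klk10 and Atp6v1c2 were not divided by Krt79.

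The 23 members without Krt79 held more of the suprabasal keratins. Their median was 36314 CPM of Krt10 against 4365 CPM with Krt79, and 15363 CPM of Krt1 against 413 CPM. The basal keratin Krt14 went the other way, detected in 9 of 23 against 21 of 27, with medians of 0 and 627 CPM. Krt5 was detected in 4 of 23 against 3 of 27. Krt2, a late keratin of the upper epidermis, was detected in 15 of 23 against 7 of 27. Mt4, a metallothionein of stratified epithelium, had a median of 926 CPM against 5.07 CPM and was detected in 23 of 23 against 14 of 27. The clade B serpin Serpinb12 stood at 1178 CPM against 74.6 CPM, and the stefin Stfa1 was detected in 20 of 23 against 8 of 27. Both kinds of cell held Elovl4, an elongase of very long fatty acids, at 440 and 497 CPM, and both held Olah, at 70.3 and 75.3 CPM.

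**Figure D3:**
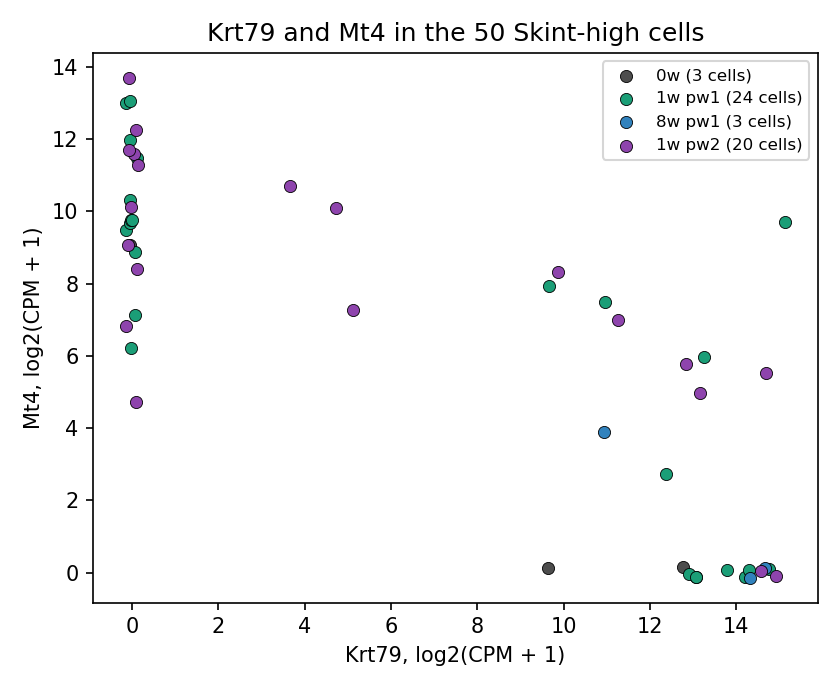
Krt79 (horizontal axis) and Mt4 (vertical axis), both as log2(CPM + 1), in the 50 Skint-high cells, coloured by time point, with a random shift of at most 0.15 so that points at 0 can be seen. The 23 cells without Krt79 all hold Mt4, and 13 of the 27 cells with Krt79 hold none.

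The Skint genes of the rule were not spread evenly over the kinds of cell. Skint6 was detected in 20 of 23 members without Krt79 and in 8 of 27 with it. Skint10 had a median of 348 CPM without Krt79 and 1373 CPM with it, and Skint9 of 298 and 711 CPM. Dsc1 was in all members of both kinds, at 626 CPM without and 861 CPM with Krt79. Hal was detected in 15 of 23 and 19 of 27. Skint10 and Skint9 were found together in 42 members. Since the score averages these genes, a cell could enter through Skint10 and Skint9 or through Skint6, and their distribution is partly fixed by the rule.

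Over the 50 members, in log2(CPM + 1), the Pearson correlation was -0.81 between Krt79 and Mt4, 0.81 between Krt79 and Defb6, 0.75 between Krt2 and Krt10, 0.79 between Mt4 and Serpinb12 and 0.49 between Skint10 and Skint9. The points are cells that share plates and differ in depth, so no p is given. Krt79 and Krt2 were both present in 7 members, Krt79 alone in 20, Krt2 alone in 15 and neither in 8. Of the 7 with both, 5 were on 1w pw2 replicate 2 and 2 on 1w pw1 replicate 1.

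By plate, Krt79 was found in 2 of 3 members on 0w replicate 2, in 6 of 10 and 6 of 14 for 1w pw1, in 4 of 9 and 6 of 11 for 1w pw2, and in 2 of 2 and 1 of 1 for 8w pw1. Both kinds of cell were thus present on each healing plate. Krt2 was found in 0 members at 0w and 8w pw1, in 6 of 10 and 5 of 14 at 1w pw1, and in 3 of 9 and 8 of 11 at 1w pw2. Stfa1 was likewise detected in 0 members at 0w and 8w pw1 and in 6, 9, 5 and 8 on the 4 healing plates. The 6 members of unwounded and healed skin are too few to test this.

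The other 8 Skint genes varied in direction from plate to plate. Means are pooled over plates that hold unlike numbers of members, so plate ratios are given beside them. At least 2-fold higher mean levels on all 5 plates with 3 or more members were found for 0 of 8, and 2-fold lower levels for 0 of 8, where 33 of all 15652 genes (0.211%) were higher and 532 (3.4%) lower. The rule used this contrast, so nothing is read from these shares. The median log2 ratio of the 8 was 0.42, against -0.44 over all genes. Skint1 was detected in 49 members, with a mean of 373 CPM against 184 CPM in the others, and its plate ratios ran from -0.37 to 2.66 on the log2 scale. Skint3 was detected in 39 members, at 350 against 273 CPM, with a median plate ratio of -0.08 and lower levels on 3 of 5 plates. Skint2 was detected in 11 members, at 142 against 77.7 CPM, with a median plate ratio of -1.62 (-7.68 to 2.55). Skint4 was in 34 members, at 220 against 181 CPM (-5.05 to 0.92), and Skint8 in 35, at 60.99 against 46.5 CPM (-1.20 to 1.30). Skint11 was in 9 members, Skint5 in 8 and Skint7 in 6. In Skint11 the mean was 20.8 CPM in members and 1.48 CPM in others, but the plate ratios ran from -1.29 to 4.56.

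Of the 14 genes of the spinous layer, 2 were at least 2-fold higher on all 5 plates and 0 were lower, with a median log2 ratio of 0.74. Krt1 averaged 10604 CPM in members and 1831 CPM in the other cells, and Calm4, a calmodulin-like protein, 6445 and 1130 CPM. Krt10 averaged 27699 against 5159 CPM, with plate ratios from 0.72 to 2.19. Krt2, detected in 22 of 50 members, averaged 10884 against 953 CPM, with plate ratios from -2.84 to 4.26. Krt77 was at 1.05 against 30.1 CPM.

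Genes of the granular and cornified layer varied in detection. Loricrin (Lor) was detected in 3 members, filaggrin (Flg) in 5, Flg2 in 0, Hrnr in 5, Rptn in 2 and Cdsn in 7. Casp14 was detected in 33, involucrin (Ivl) in 28, Cnfn in 22, Tgm3 in 21 and Tgm1 in 18. Of the other cells, 3.10% held Lor counts, 3.72% Flg, 10.7% Cdsn, 4.18% Cnfn, 16.6% Tgm3 and 8.67% Tgm1. Sprr1a, a small proline-rich protein of the envelope and the most abundant of the list, was detected in 42 members and 33.0% of the others, with plate ratios from -2.27 to 5.28. Klk5, a kallikrein that cuts desmosomal proteins during shedding, was detected in 44 members and was the 1 gene of the 21 at least 2-fold higher on all 5 plates (114 against 18.3 CPM), while 0 were lower. Spink5, its inhibitor, averaged 796 CPM in members and 723 CPM in others. Klk7 averaged 944 against 246 CPM, with plate ratios from 0.08 to 5.23. The median log2 ratio of the 21 genes was 0.15.

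Of the 14 desmosome genes, 0 were higher and 0 lower by this measure, with a median log2 ratio of 0.18. The most abundant, Perp, averaged 9754 CPM in members and 5194 CPM in the others, with plate ratios from -0.10 to 1.09. The cadherin Dsg1a averaged 3509 CPM in members and 1342 CPM in the others, and Dsg1b 876 and 406 CPM. The cadherins of the lower layers pointed the other way or were even, with Dsg3 at 200 against 448 CPM, Dsc2 at 18.2 against 42.5 CPM and Dsc3 at 1875 against 1988 CPM. The linkers averaged 6987.5 against 5026 CPM for Dsp and 564 against 360 CPM for Jup.

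Among 20 barrier lipid genes, 0 were at least 2-fold higher on all 5 plates and 1, the lipase Lipk, was lower (0 of 50 members, 19.7 CPM in the others). Their median log2 ratio was 0.65. Elovl4 was detected in all 50 members, at 544 against 98.6 CPM, and missed the measure on 1 plate with a log2 ratio of 0.93. The ceramidase Acer1 averaged 360 against 86.4 CPM, with a lowest plate ratio of 0.98, and Abca12, the lipid transporter of lamellar granules, 155 against 49.97 CPM. Sptlc3, which takes part in the first step of sphingolipid synthesis, averaged 187 against 88.9 CPM. Alox12b and Aloxe3, lipoxygenases of the barrier, were detected in 6 and 9 members.

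Other genes of the pathways of Olah and Hal had median ratios near that of all genes. Of 10 genes of fatty acid synthesis 0 were higher and 0 lower, with a median log2 ratio of -0.59. Fasn, the synthase on which Olah acts, averaged 51.2 CPM in members and 90.1 CPM in others, with plate ratios from -1.76 to 1.77. The desaturase Scd1 averaged 189 and 925 CPM, with plate ratios from -2.92 to -0.006. The related Scd2 averaged 332 and 246 CPM, with plate ratios from -0.90 to 0.79. Me1, which supplies NADPH, averaged 284 against 70.1 CPM, with plate ratios from 0.32 to 2.30. Of the 3 listed enzymes after Hal in histidine breakdown, 2 were in the table and both were rare in all cells, with Uroc1 in 2 members and 6.35% of the others and Amdhd1 in 1 member and 0.93% of the others.

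Of 20 transcription factors of differentiation 0 were higher and 0 lower, with a median log2 ratio of -0.49. Klf4, a factor of barrier formation, was detected in all 50 members and averaged 371 against 158 CPM, with plate ratios from 0.79 to 1.64. Rora averaged 162 against 59.8 CPM and Grhl3 54.9 against 20.7 CPM. Notch1 averaged 61.3 against 147 CPM, and Trp63, the factor of the basal layer, 171 against 299 CPM.

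Basal layer genes were low. Of 13, 9 were at least 2-fold lower on all 5 plates and 0 higher, with a median log2 ratio of -3.67. Krt5 averaged 4.67 CPM in members and 603 CPM in the others, Krt15 4.58 and 1017 CPM, and Krt14 928 and 3136 CPM. Col17a1 of the hemidesmosome averaged 6.23 against 338 CPM, and the integrin Itgb1 6.41 against 147 CPM. Of 20 cell cycle genes 10 were lower and 0 higher, with a median log2 ratio of -3.06. Mki67 was detected in 5 members and Top2a in 6, while Cdk1 was detected in 0. Pcna, the most abundant of the list, was detected in 46 members, at 127 against 219 CPM, with plate ratios from -2.82 to 0.14.

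**Figure D4:**
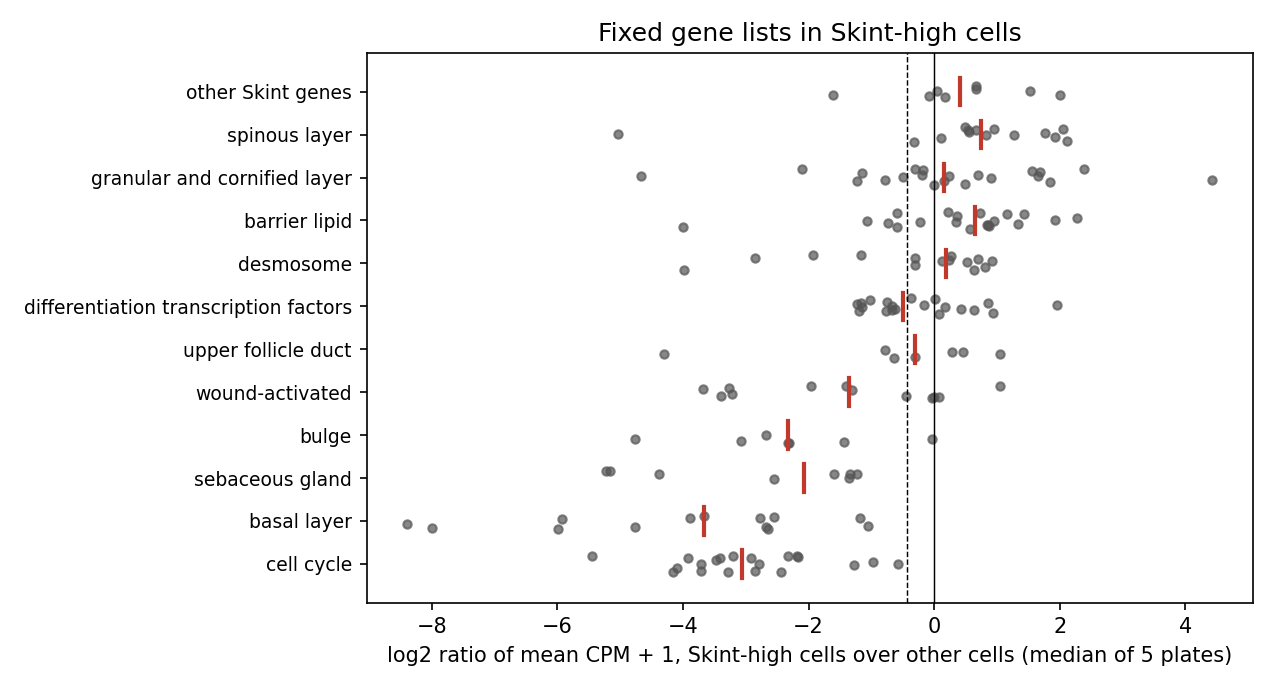
Log2 ratio of mean CPM + 1 in Skint-high cells to that in the other cells of the same plate, as the median of 5 plates (horizontal axis), for each gene (points) of 12 lists (vertical axis), with the list median in red and the median of all genes, -0.44, as a dashed line. Basal layer and cell cycle genes lie far to the left, with medians of -3.67 and -3.06, and spinous layer genes to the right, with a median of 0.74.

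Wound-activated genes differed among themselves. Of 12, 0 were at least 2-fold higher and 1 was lower, with a median log2 ratio of -1.36. The stress keratin Krt6a averaged 219 CPM in members and 1271 CPM in the others, and was the gene lower on all 5 plates. The alarmin S100a8 averaged 150 against 1502 CPM, although it was detected in 17 of 50 members and in 19.5% of the others, and Krt6b was detected in 6 members. The fatty acid binding protein Fabp5, the most abundant of the list, averaged 6948 against 7141 CPM and was lower on 4 of 5 plates. Serpinb3a and the stefin Stfa3 had higher pooled means (172 against 27.4 and 1386 against 488 CPM), but median plate ratios of 0.00 and -0.03. Krt17, which is also a keratin of the follicle, averaged 4302 against 1431 CPM, with plate ratios from 0.03 to 4.23. Of 50 cells chosen by wound-activated genes in the same way, 2 were Skint-high cells (4% of either set).

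Of the 3 scale genes, Mt4 was higher on all 5 plates, at 1250 against 237 CPM. Krt36 and Krt84, the hard keratins of the tail scale, were rare in all cells, detected in 2 and 3 members and in 4.95% and 3.72% of the others. Of the 7 genes of the upper follicle duct 0 were higher and 0 lower, with a median log2 ratio of -0.31. Lrig1 was detected in 10 members and 47.1% of other cells, and Lrig1 and Plet1 of the 3 junctional zone genes were lower on all 5 plates. Of the 7 bulge genes Lgr5 and Lhx2 were lower, and of the 8 sebaceous gland genes 0 were higher and 0 lower, with Pparg in 1 member and Awat2 and Cidea in 0.

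Markers of Langerhans cells, T cells, fibroblasts and melanocytes were at or near 0, while the endothelial gene Pecam1 was not. The 3 Langerhans cell genes, Cd74 included, were at 0 in all 50 members and summed to at most 8528 CPM in any other cell. The 4 T cell genes summed to 0 in 40 of 50 members and at most to 36.5 CPM, with Cd3e and Cd3g at 0 throughout. The 4 fibroblast genes summed to 0 in 48 members, and the 2 melanocyte genes in 42. Pecam1, the only endothelial gene in the table, was detected in all 50 members and in 98.6% of the other cells, at 775 and 1997 CPM. Dissociation response genes (15) were higher for 0 and lower for 2, namely Jun and Atf3, with a median log2 ratio of -0.95. Of 14 glycolysis genes 0 were higher and 1, Slc2a1, was lower (13.0 against 96.4 CPM), with a median of -1.11.

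Outside the rule, and among genes at 50 CPM or more in, and detected in 50% or more of, the members, those ranked highest by their median ratio over the 5 plates were Slurp1 (log2 ratio 4.84) and Slurp2 (3.77), secreted Ly6-family proteins of keratinocytes. They were detected in 33 and 44 members, against 5.88% and 12.7% of the other cells. Serpinb12 followed with 3.43, the keratin Krt24 with 2.98, the lysophospholipid acyltransferase Agpat4 with 2.77 and Prxl2b with 2.61. Next came Klk5 (2.38), Ly6g6e (2.32), Oas1f of the oligoadenylate synthetase family (2.31), Elovl4 (2.27), Mt4 (2.25), the kallikrein Klk8 (2.23), Krt10 (2.12), Krt1 (2.05) and the calmodulin-like Calm5 (1.96). Slurp2 averaged 246 CPM on 0w replicate 2, 165 and 149 CPM for 1w pw1, 402 and 143 CPM for 1w pw2 and 295 and 1278 CPM for 8w pw1. It was therefore present at all 4 time points. Serpinb12 averaged 66.5 CPM on 0w replicate 2 and 522, 1444, 615 and 1620 CPM on the healing plates in that order, with 206 and 159 CPM at 8w pw1.

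With the same floors applied to the other cells, the lowest ratios were those of Krt5 (-8.00), the ferritin light chain Ftl1 (-6.29), Col17a1 (-6.00), Itgb1 (-5.93), S100a6 (-4.53), Moxd1 (-4.44), the lysosomal protease Ctsl (-4.20), Paics of purine synthesis (-4.10), Actn1 (-3.99) and the cyclin Ccnd2 (-3.88). Ftl1 was detected in 3 of 50 members and 61.9% of the other cells. S100a6 was detected in 17 members and 75.7% of the others.

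Across all cells, members and others together, the genes whose log2(CPM + 1) followed the score most closely were Slurp2 (Pearson r 0.69), Oas1f (0.66), Tmprss4 (0.65), Elovl4 (0.65), Calm5 (0.61), Klk8 (0.61), Serpinb12 (0.61) and Serpinb3b (0.60). Cells share plates and depth, and these values are descriptions.

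Skint-high cells were set beside the other cells with high suprabasal keratins. Of 50 cells ranked in the same way by suprabasal keratin genes, 18 (36.0% of either set) were Skint-high, which leaves 32. These 32 were chosen by suprabasal keratin genes and the Skint-high cells by other genes. Higher levels of such keratins in the 32 therefore follow in part from the choice, and nothing is read from them. Krt1 averaged 10604 CPM in the Skint-high cells and 17886 CPM in these 32, and Krt10 27699 and 30856 CPM. Of the genes ranked highest against all other cells, Klk8 (180 against 296 CPM) and Mt4 (1250 against 1660 CPM) were likewise lower than in these 32. The rest of those genes were higher in Skint-high cells, from Calm5 (log2 ratio 0.12) to Slurp1 (2.58). With floors of 50 CPM and detection in 50% of the set with the higher level, genes among the 12 with the highest ratio in Skint-high cells were Cyp2b19, an epoxygenase of keratinocytes (log2 ratio 3.79, 310 against 21.6 CPM), Ivl (3.71, 121 against 8.31 CPM), Tprg (3.05) and Krt17 (3.01). Among the 12 with the lowest were Ctsl (-4.08), S100a8 (-4.00, 150 against 2414 CPM), Mt2 (-3.12), Ccnd1 (-3.08), Stfa1 (-2.63) and Krt16 (-2.50, 680 against 3849 CPM). These means are pooled over plates, and of the wound-activated list they include genes on both sides, Krt17 among the higher and S100a8, Stfa1 and Krt16 among the lower. Of 50 cells ranked by scale genes, 7 (14.0%) were Skint-high.

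Whether Skint-high cells differ between the second and the first healing was asked by comparing 1w pw2 with 1w pw1. Counts of the members were summed per plate for the 5 plates with 3 or more of them, from 279051 counts on 0w replicate 2 to 4667803 on 1w pw1 replicate 2. With edgeR's quasi-likelihood test, 0 of 9351 genes (0.0%) passed an adjusted p of 0.05 and a 2-fold change, 462 had an unadjusted p below 0.05, and the smallest adjusted p was 0.839. DESeq2 called 36 genes, 15 higher and 21 lower at 1w pw2, and edgeR with no filter on low counts called 61. A contrast with 0w rests on 1 plate with 3 members, which has no spread of its own and was assumed to vary like the other groups, so its calls describe that plate. On this basis 0 genes (0.0%) were called for 1w pw1 and 0 (0.0%) for 1w pw2 against 0w, with 1294 and 1321 at an unadjusted p below 0.05, and 9 (0.0962%), 2 higher and 7 lower, for both healings against 0w. DESeq2 called 153, 208 and 246 genes in the same contrasts. The fit had 2 residual degrees of freedom and a biological coefficient of variation of 0.83. With that spread given to every gene, 0% of simulated 8-fold changes were recovered. This test could therefore not show a change of that size in genes of such spread. Genes with a smaller spread are not covered by that result.

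Among the genes described above, Defb6 was 10325 and 5130 CPM in the summed members at 1w pw1 and 1303 and 807 CPM at 1w pw2. The other cells of the same plates were also higher at 1w pw1, with means of 10071 and 9151 CPM against 6075 and 2437 CPM. In the members the log2 difference was -2.87 (SE 0.66, adjusted p = 0.839 in edgeR, 0.0437 in DESeq2). Krt2 was 2600 and 18086.5 CPM at 1w pw1 and 5917 and 50368 CPM at 1w pw2, a log2 difference of 1.44 (SE 1.02, adjusted p = 0.932) with overlapping plates. Krt79 was 6321 and 3670 CPM at 1w pw1 and 5180 and 3860 CPM at 1w pw2, with a log2 difference of -0.14 (SE 0.58). Mt4 was 1753 and 820 CPM at 1w pw1 and 1671 and 864 CPM at 1w pw2. Krt79 and Mt4 differed by less than the spread between plates. Among the Skint genes outside the rule, Skint1 was 530 and 287 CPM at 1w pw1 and 443 and 299 CPM at 1w pw2, again with overlapping plates.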

How the data were processed

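Single-cell RNA-seq (Smart-seq2, full-length, single-end, no molecular identifiers) of 696 sorted Lrig1-lineage keratinocytes on 8 plates was used. The authors deposited 1 table of expected counts, that is estimated counts per gene and cell that are not normalised, made with Salmon 0.13.1 on an Ensembl mouse transcriptome (mm10, GRCm38), with cells of few genes or high mitochondrial share removed; Seurat and R 4.0.3 are also named in the submitters' processing notes. Of the values, 96.6% were whole numbers, and the sums were rounded before testing. The table held 0 columns without a sample.

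CPM, scores, shares and plate sums were computed here (Python 3.11.15, pandas 2.3.3, NumPy 2.4.6). Shares per plate were compared by exact two-sided permutation over plates. Member counts were summed per plate and tested with edgeR 4.0.16 (TMM, filterByExpr, quasi-likelihood, Benjamini-Hochberg adjustment) in R 4.3.3, with DESeq2 1.42.0 as an alternative; the edgeR script was tested on simulated data. The fixed settings were a call at adjusted p below 0.05 and a fold above 2, a pseudocount of 1 CPM and at least 3 members on a plate. A 2-fold call on levels required the ratio of mean CPM + 1 to pass on all 5 such plates. Cells are not replicates, so no cell-level test was made. Doublets were not called, and the sort used a singlet gate.

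The members, gene lists and tests were chosen with earlier results of these data known. Named genes were the rule genes, every other Skint gene, up to 4 genes of each list by mean CPM over all cells, and the 15 genes with the highest and 10 with the lowest median plate ratio, among genes on the same side on every plate with 3 or more members, at 50 CPM or more and detected in 50% or more of the cells on the higher side, without predicted gene models and pseudogenes. Genes named with Krt79, and further genes within lists, were chosen after their values were seen, and not every gene that the rule allows is named. Coordinates come from GENCODE and promoters from RefSeq, both on GRCm38, matched by symbol; all 11 Skint genes, Olah and Hal had a promoter entry.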

Additional observations from a re-analysis of the deposited data

How the results depend on the processing

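The contrasts of healing with non-healing skin, of 1w pw1, 8w pw1 and 1w pw2 with 0w, and of the member-minus-rest difference were not run as planned, because the design asked for 2 plates with 3 or more members at each time point, and among non-healing plates only 0w replicate 2 had them. With that plate alone for 0w, an alternative chosen after seeing the data in which it is assumed to vary like the other groups, edgeR called 0 genes for 1w pw1, 0 for 1w pw2 and 9 for both healings against 0w, and 8w pw1 had no plate to enter. With 75 members, limma 3.58.1 could be run on 6 plates, 2 of them non-healing, and called 0 of 10806 genes (1896 at an unadjusted p below 0.05, smallest adjusted p 0.159).

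Healing plates held a larger mean share of Skint-high cells under every alternative tried. The difference in share was 7.33 points with 35 members, 16.2 with 75 members, 11.2 with a score without Skint6 and 10.1 without Hal. It was 11.8 in cells thinned to 20000 counts and, in an alternative that had not been planned, 10.9 without 1 of the 2 similar cells. Each of these passed an adjusted p of 0.05 where the full set did not. The unadjusted p was 0.0286 in all of these and in the full set, the smallest the test can give, so the adjusted p passed because the p across time points, adjusted with it, was smaller. Without Skint10 (10.5 points), Skint9 (11.2), Dsc1 (11.1) or Olah (10.6) in the score, and in cells with at least 50000 counts (13.2), the adjusted p stayed at 0.0571. Across time points the values under the same settings were 9.65, 19.2, 15.1, 14.6, 14.7 and 12.8 points. Leaving out each plate gave 9.56 to 11.98 points for healing and 9.63 to 16.1 across time points, with adjusted p of 0.0286 to 0.0571 and 0.0286 to 0.0857. Of cells with Krt1 and Krt10 counts the difference did not pass.

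For 1w pw2 against 1w pw1, DESeq2 called 36 genes and edgeR with no filter 61, against 0; leaving out 1 plate called 0 to 5 (4 without 1w pw1 replicate 1, 1 without 1w pw1 replicate 2, 3 without 1w pw2 replicate 1 and 5 without 1w pw2 replicate 2). In these fits the lone plate of a time point is assumed to vary like the other groups. With the replicate number as a block 0 genes were called (423 at an unadjusted p below 0.05). Same-numbered plates of 1w pw1 and 1w pw2 correlated at 0.11 in their deviations across 9351 genes; this was the only such value, it does not settle whether the numbers pair the plates, and they were treated as unpaired. Defb6 passed without the filter (-2.87) and in DESeq2 (-2.83). Differences near 0 turned sign: Krt79 was 0.54 with 35 members and 0.34 without Skint10 in the score, and -0.49 to 0.31 when a plate was left out; Mt4 was 0.047 without Dsc1, 0.034 without Hal, 0.16 in cells with at least 50000 counts, 0.13 with every cell scaled equally, 0.022 with DESeq2 size factors in edgeR and in DESeq2, 0.0037 with the replicate block, and -0.52 to 0.64 when a plate was left out. Krt2 ran from -0.82, without 1w pw2 replicate 2, to 3.43. The causes were not tested. The number of members per plate, and sums weighted to deep cells, limit these values.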
